A study of Homo sapiens with 12 samples.

Results

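The genes described are the subunits of the oxidative phosphorylation system, the 5 protein complexes of the inner mitochondrial membrane that oxidise fuel and make ATP. They were chosen by name: the 13 protein-coding genes of the mitochondrial genome, and the nuclear genes whose HGNC symbols belong to the NDUF, SDH, UQCR, CYC1, COX and ATP5 subunit families, with assembly factors and pseudogenes left out. This gave 98 of the 61541 genes in the files, 13 mitochondrial and 85 nuclear. The rule used names and gene types only, but it was set with earlier results of these data known. COX4I1, a further cytochrome c oxidase subunit, falls outside the naming pattern and is given with the related genes.

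The RNA came from IMR90, a widely used cell line of fibroblasts from human fetal lung, after exposure to doxorubicin, an anthracycline that damages DNA and is used to drive cells into senescence. The 4 kinds of culture were sequenced as polyadenylated RNA, with 3 libraries each and 12 in all: 250 nM drug on a soft 2 kPa gel, 250 nM on plastic, 100 nM on the gel and 100 nM on plastic. All had the drug for 24 h and then at least 8 days of culture. No untreated library was analysed here, so every value compares substrates or doses among drug-treated cells of 1 line. The titles give the doses in nM and a protocol gives them in µM, and the soft substrate is called a hydrogel in one place and a coating of PDMS in another. The labels do not say that replicates were separate cultures, so p-values measure the spread between these libraries.

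In oxidative phosphorylation, complexes I and II pass electrons from NADH and succinate to ubiquinone, complex III passes them on to cytochrome c, and complex IV hands them to oxygen. Complexes I, III and IV pump protons, and complex V, the ATP synthase, uses the return flow to make ATP. Complex II is wholly nuclear-encoded, while the others join subunits from both genomes. Mitochondrial genes are copied as long transcripts from both strands of the circular genome, so their messenger RNAs share promoters. Most of them are cut apart afterwards. The nuclear genes are transcribed one by one, and many have binding sites for NRF1, the ETS factor GABP or YY1. In senescent fibroblasts mitochondria are known to be more abundant and less efficient.

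Several mitochondrial genes overlap, so reads from the shared bases can be credited to either gene. MT-ATP8 and MT-ATP6, both membrane subunits of ATP synthase, share 46 bases at chrM:8527-8572 (GRCh38, heavy-strand sense), shown because the division of reads between this pair moved with dose. The capitals mark the start codon of MT-ATP6, and the lower-case bases after it are also the end of the MT-ATP8 reading frame.
MT-ATP8 and MT-ATP6 shared: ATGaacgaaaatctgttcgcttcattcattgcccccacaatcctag
MT-ND4L and MT-ND4 share 7 bases in the same way, and MT-ATP6 and MT-CO3 share 1.

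For the nuclear genes, RefSeq promoter windows of 300 bases (250 before to 50 after the gene start, GRCh38.p14) were found for 67 of 85 members. The letters searched on both strands were GCGC, any base and then TGCGC for NRF1, CCGGAAG for ETS factors and AAGATGGC for YY1. The NRF1 letters were in 17 of the 67 windows (25.4%), against 6.28% of all 27305 windows. The ETS letters were in 19 (28.4%), against 10.7%, and the YY1 letters in 11 (16.4%), against 3.03%. At least 1 of the 3 was in 38 windows (56.7%), against 17.9% of all windows. These are letter matches and not measured binding.
The 5 nuclear members COX5A, COX7A1, NDUFA6, SDHA and ATP5ME were higher at 250 nM on both substrates, as described further on, and the windows of 4 of them are printed to show how unlike their promoters are. Capitals mark the motif letters. SDHA (chr5:218070-218369, plus strand) holds 4 NRF1 matches. ATP5ME (chr4:674227-674526, minus strand) holds 2 NRF1 matches and 1 ETS match, NDUFA6 (chr22:42090723-42091022, minus strand) holds 1 YY1 match, and COX5A (chr15:74938024-74938323, minus strand) holds none. COX7A1 is named only. No 2 matched motifs overlap within a window.
SDHA: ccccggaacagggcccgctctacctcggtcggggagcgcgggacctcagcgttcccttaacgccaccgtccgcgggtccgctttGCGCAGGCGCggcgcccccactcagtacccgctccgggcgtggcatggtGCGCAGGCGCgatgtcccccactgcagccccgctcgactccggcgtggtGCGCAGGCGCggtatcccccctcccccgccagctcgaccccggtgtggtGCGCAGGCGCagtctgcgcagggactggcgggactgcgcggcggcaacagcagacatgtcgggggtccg
ATP5ME: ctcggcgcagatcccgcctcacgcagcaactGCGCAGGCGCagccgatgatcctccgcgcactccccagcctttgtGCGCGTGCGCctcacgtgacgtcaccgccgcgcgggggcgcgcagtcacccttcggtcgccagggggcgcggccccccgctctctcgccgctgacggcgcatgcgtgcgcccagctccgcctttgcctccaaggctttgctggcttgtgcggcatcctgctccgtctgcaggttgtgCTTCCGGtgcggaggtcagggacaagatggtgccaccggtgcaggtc
NDUFA6: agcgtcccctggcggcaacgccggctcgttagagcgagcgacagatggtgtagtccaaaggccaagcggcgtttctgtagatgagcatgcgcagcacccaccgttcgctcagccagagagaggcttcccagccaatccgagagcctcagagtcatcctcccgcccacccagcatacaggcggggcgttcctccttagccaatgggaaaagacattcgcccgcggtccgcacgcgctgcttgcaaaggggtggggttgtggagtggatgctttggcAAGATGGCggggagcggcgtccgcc
COX5A: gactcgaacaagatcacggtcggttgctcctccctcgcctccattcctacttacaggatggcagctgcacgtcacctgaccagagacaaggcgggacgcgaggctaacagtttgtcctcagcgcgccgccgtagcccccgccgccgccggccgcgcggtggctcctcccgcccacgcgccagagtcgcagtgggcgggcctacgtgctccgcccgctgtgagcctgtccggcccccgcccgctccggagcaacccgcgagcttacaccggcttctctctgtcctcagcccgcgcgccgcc

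Library totals ran from 2229060 to 2730293 rounded counts at 250 nM and from 5887051 to 7351904 at 100 nM, so 250 nM values rest on fewer reads. The 250 nM files mention molecular identifiers in their names and the 100 nM files do not, so dose and library set cannot be told apart. Replicate 1 of gel at 250 nM stood apart: across genes it correlated with its group mates by 0.848 on average, and the other libraries by 0.898 to 0.959. The 3 loci of ribosomal DNA repeats took 13.2% of its counts and 14.3% of those of replicate 1 of plastic at 100 nM, against 24.2% to 30.7% elsewhere. All 15 fibroblast markers were tested and together held 10010 to 15190 CPM, counts scaled to the same library size. All 14 leukocyte markers averaged under 1 CPM. Other cell types had some markers that passed the filter on low counts. These were 4 of 14 for epithelium, 3 of 12 for endothelium and 6 of 10 for pericytes and smooth muscle, of which KRT18 (72.9 CPM), TEK (20.9 CPM) and ACTG2 (91.7 CPM) had the highest averages. The summed endothelial level was 30.6 to 39.3 CPM on gel and 50.7 to 69.9 CPM on plastic at 250 nM, and 21.9 to 26.8 CPM on gel and 33.5 to 55.5 CPM on plastic at 100 nM, without overlap. The pericyte and smooth muscle sum was 266.4 to 337.9 CPM on gel and 341.8 to 454.4 CPM on plastic at 250 nM, without overlap, and 164.7 to 250.7 CPM on gel and 244.3 to 326.9 CPM on plastic at 100 nM. The part of these levels in the substrate results was not tested.

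Measured per length as TPM, a share of transcripts corrected for length, the mitochondrial genes were the more abundant class by far. Over the 12 libraries the 13 genes summed to a mean level of 52798 TPM and the 85 nuclear genes to 22311 TPM, and the median gene level was 2457 TPM in the mitochondrial class and 120.4 TPM in the nuclear class. MT-ND3 and MT-ATP8 had the highest levels, 10630 and 10564 TPM, and both are among the shortest genes, for which per-length levels are least certain. MT-ND6, the only messenger RNA of the light strand, had the lowest mitochondrial level, 992.8 TPM; the strand setting of the counting is not given in the sources used here, so its reads cannot be told from antisense reads of the other strand. Within the nuclear class the most abundant member of each complex was NDUFS5 of complex I at 782.1 TPM, SDHA of complex II at 156.4 TPM, UQCRQ of complex III at 1462 TPM, COX6C of complex IV at 831.8 TPM and ATP5MG of complex V at 2436 TPM. By median gene level the complexes ranked V (215.4 TPM), IV (186.3 TPM), III (102.3 TPM), II (94.5 TPM) and I (93.7 TPM), and their ranges overlapped widely. Here and below, genes were assigned to complexes by symbol alone, so every NDUF gene, NDUFA4 included, was counted in complex I whatever its place in the chain.

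Of the 98 members, 93 passed the filter on low counts and were tested. The 5 that did not pass were COX6A2, COX6B2, COX7B2, COX8C and the readthrough gene ATP5MF-PTCD1, each with 0 to 2 counts in every library. The first 4 are tissue-restricted isoforms, known from heart and skeletal muscle (COX6A2) or testis (COX6B2, COX7B2 and COX8C).

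The summed CPM of the mitochondrial genes was higher at 250 nM. The ratio of their summed level to that of the nuclear genes was higher on gel than on plastic. At 250 nM that order did not hold for the class medians, which overlapped. The 13 mitochondrial genes summed to 57598, 36477 and 36246 CPM on gel at 250 nM and to 27430, 35483 and 33732 CPM on plastic at 250 nM. At 100 nM they summed to 22756, 24384 and 24513 CPM on gel and to 27046, 17102 and 20213 CPM on plastic. Every 250 nM library was above every 100 nM library in CPM, by a small margin for replicate 1 of plastic at 250 nM. In TPM this did not hold on plastic. There replicate 1 at 100 nM summed to 53084 TPM, above replicates 1 (51171.5 TPM) and 3 (50539.1 TPM) at 250 nM. On gel at 250 nM all 3 sums were above those on plastic, while at 100 nM the 2 substrates overlapped.

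The 85 nuclear genes summed to 16722, 12389 and 11898 CPM on gel at 250 nM and to 10085, 12141 and 12161 CPM on plastic at 250 nM. At 100 nM they summed to 6954, 8441 and 7840 CPM on gel and to 12133, 10263 and 7716 CPM on plastic. The substrates overlapped at both doses, and on gel the 250 nM sums were all above the 100 nM sums, whereas on plastic the doses overlapped.

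Set against each other within a library, the summed mitochondrial TPM was 2.54, 2.42 and 2.40 times the nuclear TPM on gel at 250 nM, and 2.26, 2.22 and 2.10 times on plastic at 250 nM. At 100 nM the ratio was 2.98, 2.81 and 2.997 on gel, and 1.90, 1.61 and 2.72 on plastic. The mean ratio was thus 2.45 ± 0.073 on gel and 2.19 ± 0.0809 on plastic at 250 nM, and 2.93 ± 0.104 on gel and 2.08 ± 0.573 on plastic at 100 nM (SD, n = 3 each). Gel was above plastic without overlap at both doses, with gaps that were small beside the spread on plastic at 100 nM. Taken instead as the median log2 CPM of the mitochondrial genes minus that of the tested nuclear genes, the difference was 4.89, 4.66 and 4.47 on gel and 4.25, 4.42 and 4.48 on plastic at 250 nM, which overlapped. At 100 nM it was 4.81, 4.71 and 4.83 on gel and 4.48, 3.85 and 4.54 on plastic, which did not. The mean difference between gel and plastic was 0.29 at 250 nM and 0.50 at 100 nM in CPM, and 0.01 at 250 nM and 0.73 at 100 nM with the medians taken in TPM. These are descriptions of chosen genes and carry no p-value, and in bulk RNA a change in the number of cells of a kind and a change in RNA per cell cannot be told apart.

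**Figure D1:**
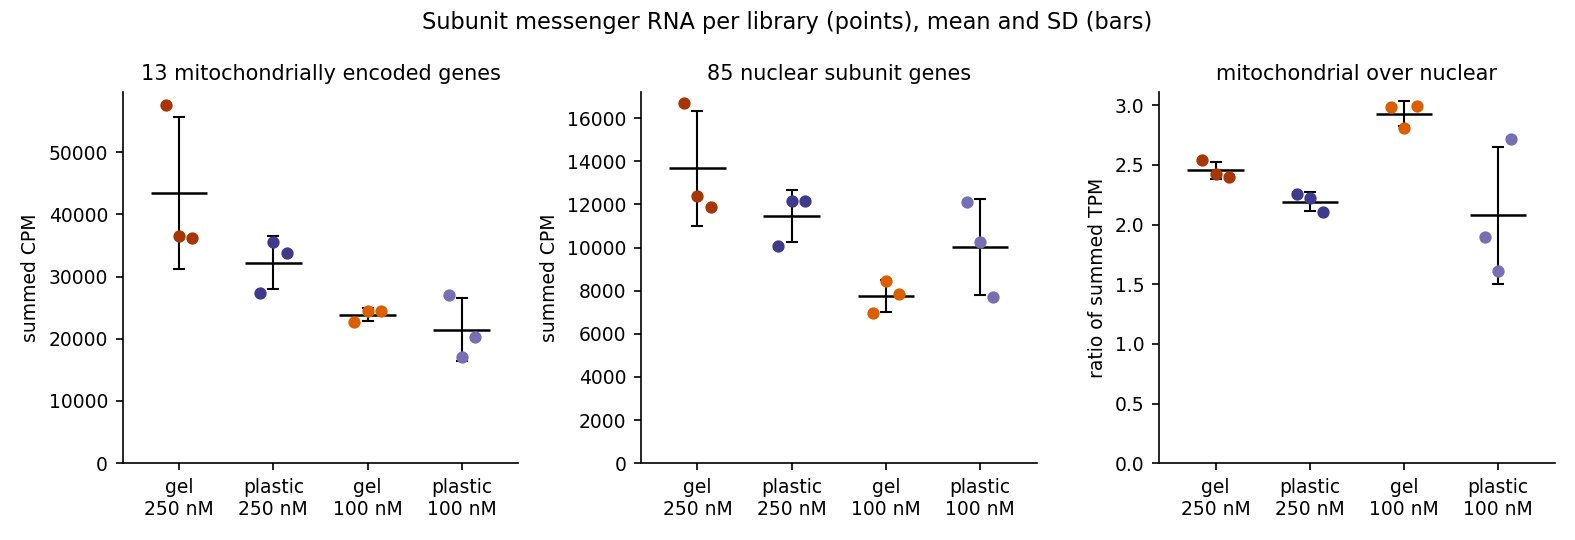
Summed CPM of the 13 mitochondrial and of the 85 nuclear genes, and the ratio of their summed TPM, on linear axes from 0. Each point is a library, with the mean and SD of 3 drawn for each of 4 groups; in the right-hand panel gel lies above plastic at both doses, between 2.40 and 2.54 at 250 nM and between 2.81 and 2.997 at 100 nM.

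Gel was compared with plastic at each dose to see how the substrate relates to subunit expression, and the clearest single gene was MT-ND2, a membrane subunit of complex I (ENSG00000198763, chrM:4470-5511, a single-exon gene on the heavy-strand transcript). At 250 nM it had 1620, 1954 and 1800 CPM on gel, against 1047, 1291 and 1241 CPM on plastic. At 100 nM it had 2417, 2673 and 2716 CPM on gel, against 1469, 1392 and 1639 CPM on plastic. All 3 gel libraries were above all 3 plastic libraries at both doses. The fitted log2 change averaged over the doses was 0.69 (SE 0.12), with an adjusted p of 0.0132 from edgeR's quasi-likelihood test with Benjamini-Hochberg adjustment over 12329 genes. It was the 1 member called of 93 tested, where 0.795% of all genes were called, 0.292% higher and 0.503% lower on gel. At each dose alone it did not pass, with log2 changes of 0.59 (SE 0.17, edgeR adjusted p = 0.265) at 250 nM and 0.80 (SE 0.17, edgeR adjusted p = 0.0955) at 100 nM. The averaged call was lost without replicate 2 of plastic at 100 nM (edgeR adjusted p = 0.0505) and without replicate 3 of gel at 100 nM (edgeR adjusted p = 0.0569). A nuclear copy of the gene, the pseudogene MTND2P28, is 98.4% identical over 1042 bases, and its CPM was 1.59% to 2.44% of that of MT-ND2.

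MT-ND5, another membrane subunit of complex I, was the other mitochondrial gene whose groups did not overlap at both doses. It had 2288, 2154 and 1887 CPM on gel and 1227, 1835 and 1755 CPM on plastic at 250 nM, and 2501, 2365 and 2533 CPM on gel and 2070, 1347 and 1826 CPM on plastic at 100 nM. Gel was higher in each case, by a log2 change of 0.45 over both doses (SE 0.14, edgeR adjusted p = 0.187), which did not pass. Over all genes tested, 1.24% were higher on gel without overlap at both doses and 1.94% were lower. The nuclear members NDUFV3 and NDUFB10, both accessory subunits of complex I, were also higher on gel without overlap at both doses, and 0 members were lower.

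**Figure D2:**
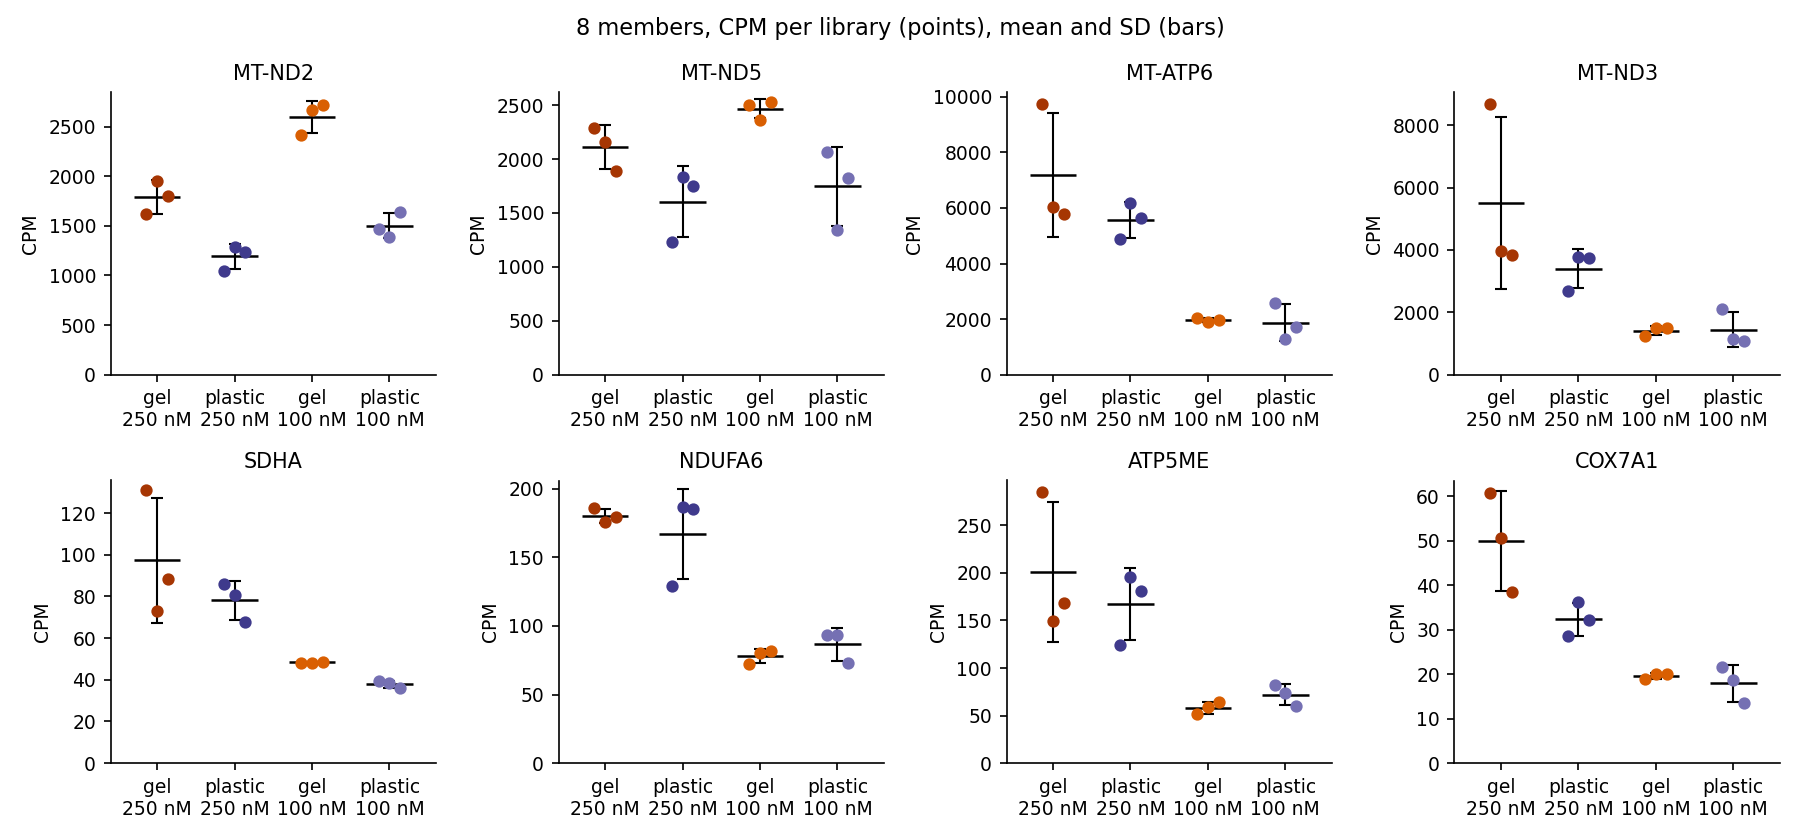
CPM per library of 4 mitochondrial genes (top row) and 4 nuclear genes (bottom row) on linear axes from 0, with points for libraries and bars for the mean and SD of 3. MT-ND2 and MT-ND5 are higher on gel at both doses, and the other 6 are higher at 250 nM on both substrates.

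None of the 13 mitochondrial and 80 nuclear members tested was called between gel and plastic at 250 nM (edgeR), where 0.00811% of all genes were called, and at an unadjusted p under 0.05 there were 3 mitochondrial and 15 nuclear members (9.93% of all genes). At 100 nM none was called either (edgeR, 0.219% of all genes, with 0.0649% higher and 0.154% lower on gel), and 2 mitochondrial and 14 nuclear members had an unadjusted p under 0.05 (9.86% of all genes). At 250 nM 5 mitochondrial and 15 nuclear members were higher on gel without overlap (7.45% of all genes) and 0 mitochondrial and 2 nuclear members lower (7.62%), and at 100 nM 2 mitochondrial and 4 nuclear members were higher (9.62% of all genes). DESeq2 called 1 mitochondrial and 1 nuclear member at 250 nM, where it called 0.754% of all genes, and 1 mitochondrial and 0 nuclear members at 100 nM, where it called 1.28%.

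The direction of the estimates differed between doses for the nuclear genes. At 250 nM the median log2 change on gel was 0.28 for the nuclear and 0.39 for the mitochondrial genes, against -0.02 for all genes tested, with 64 of 80 nuclear and 13 of 13 mitochondrial estimates above 0. At 100 nM it was -0.30 for the nuclear and 0.07 for the mitochondrial genes, against -0.01 for all genes, with 67 of 80 nuclear estimates below 0. In all, 54 nuclear members had a negative estimate at 100 nM and a positive one at 250 nM, and 0 had groups that did not overlap in opposite directions. The difference of the substrate effects, 250 nM minus 100 nM, had a median of 0.61 in the nuclear and 0.29 in the mitochondrial genes, against -0.02 over all genes, and 0 genes were called for it by edgeR's test (0% of 12329, with 6.25% at an unadjusted p under 0.05, among them 28 nuclear members and 1 mitochondrial). No gene was called for it by DESeq2 either. These medians rested in part on single libraries. Without replicate 1 of gel at 250 nM the median at 250 nM was 0.10 in the nuclear and 0.14 in the mitochondrial genes. The mitochondrial median at 100 nM was -0.10 without replicate 2 of plastic at 100 nM. Without replicate 1 of plastic at 100 nM the nuclear median at 100 nM was -0.12 and the mitochondrial one 0.35, and with replicate 1 of gel at 250 nM also left out the difference was 0.25 in the nuclear and -0.18 in the mitochondrial genes.

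By complex, the nuclear medians at 250 nM were 0.31 for I, 0.34 for II, 0.41 for III, 0.18 for IV and 0.25 for V, and at 100 nM they were -0.22 for I, -0.46 for II, -0.21 for III, -0.37 for IV and -0.32 for V. The sign was thus the same in the 5 complexes at each dose. Among the nuclear members the largest estimates at 250 nM were those of ATP5MC1, one of 3 genes for the rotor ring subunit c, at 1.47 (SE 0.46), NDUFV1, the flavin-binding core subunit of complex I, at 1.18 (SE 0.28), and NDUFS7, an iron-sulfur core subunit, at 0.90 (SE 0.25), with edgeR adjusted p-values of 0.307, 0.21 and 0.265. ATP5MC1 had 116.3, 31.1 and 40.5 CPM on gel, against 25.2, 15.96 and 27.1 CPM on plastic, and without replicate 1 of gel its estimate was 0.62, below those of NDUFV1 (0.96) and NDUFS7 (0.80) in the same setting.

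NDUFS7 had 19.5, 17.0 and 16.4 CPM on gel and 9.52, 9.39 and 9.42 CPM on plastic at 250 nM, with no overlap. At 100 nM it had 9.80, 9.21 and 9.12 CPM on gel and 8.94, 9.45 and 11.6 CPM on plastic, which overlapped. NDUFV1 had 41.6, 30.6 and 27.8 CPM on gel and 18.6, 11.7 and 13.7 CPM on plastic at 250 nM, also with no overlap, and 22.5, 19.8 and 22.5 CPM on gel and 31.2, 17.0 and 24.7 CPM on plastic at 100 nM. The lowest estimates at 250 nM among the named members were ATP5F1C, the gamma subunit of the ATP synthase rotor, at -0.53 (SE 0.26), ATP5PD of the stator stalk at -0.33 (SE 0.26) and ATP5F1A, the alpha subunit of the catalytic head, at -0.23 (SE 0.17). Their edgeR adjusted p-values were 0.518, 0.715 and 0.693. ATP5PD had 34.4, 71.4 and 64.1 CPM on gel, against 65.0, 71.8 and 76.2 CPM on plastic, and its estimate was -0.09 without replicate 1 of gel. With replicate 2 of plastic left out that of ATP5F1C was -0.35.

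At 100 nM the lowest estimates were for NDUFB3, an accessory subunit of complex I, at -1.55 (SE 0.47), SDHC, a membrane anchor of complex II, at -1.10 (SE 0.39), and NDUFA3, another accessory subunit of complex I, at -1.01 (SE 0.51). Their edgeR adjusted p-values were 0.287, 0.378 and 0.54. NDUFB3 had 11.6, 26.3 and 12.98 CPM on gel and 95.3, 33.9 and 19.6 CPM on plastic, and SDHC had 66.2, 163.4 and 114.2 CPM on gel and 389.8, 221.3 and 127.0 CPM on plastic. NDUFA3 had 16.3, 21.4 and 18.1 CPM on gel and 74.3, 22.3 and 15.8 CPM on plastic. In all 3 genes replicate 1 of plastic was the highest library and the groups overlapped. Without that library the estimates were -0.65 for NDUFB3, -0.59 for SDHC and -0.02 for NDUFA3. Of the 80 nuclear members 7 were lower on gel without overlap at 100 nM (9.38% of all genes tested), among them COX6C and COX7A2 of complex IV, whose fitted changes of -0.80 (SE 0.26) and -0.81 (SE 0.31) did not pass (edgeR adjusted p = 0.304 and 0.419), that of COX7A2 being -0.35 without replicate 1 of plastic. NDUFV3, NDUFS1 and SDHA had the highest estimates, 0.20, 0.24 and 0.35, and none passed. SDHA, the flavoprotein of complex II, had 48.1, 48.2 and 48.6 CPM on gel, against 39.4, 38.4 and 36.1 CPM on plastic.

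The doses were compared on each substrate, with the library set changing along with the dose. Among the mitochondrial genes, MT-ATP6, MT-ND3 and MT-ND4 were higher at 250 nM on both substrates. On plastic those 3 of 13 were called higher and 0 lower, where 8.61% of all genes were called, 4.09% higher and 4.52% lower. On gel 7 were called higher and 1 lower, where 13.8% of all genes were called, 6.92% higher and 6.89% lower. The 4 further genes called higher on gel were MT-ND1, MT-CYB, MT-CO2 and MT-CO3, and the 1 called lower was MT-ND2.

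MT-ATP6, the proton channel subunit of ATP synthase (ENSG00000198899, chrM:8527-9207), had 9746, 6030 and 5789 CPM at 250 nM and 2041, 1905 and 1982 CPM at 100 nM on gel. On plastic it had 4874, 6181 and 5620 CPM at 250 nM and 2591, 1293 and 1733 CPM at 100 nM. The doses did not overlap on either substrate, and the log2 changes were 1.86 on gel (SE 0.26, edgeR adjusted p = 0.00288) and 1.57 on plastic (SE 0.26, edgeR adjusted p = 0.00512). Both calls held in all 24 analysis settings tried, with an adjusted p of at most 0.0214 on gel and 0.0382 on plastic. The size was less stable. The lowest estimates among these settings, 1.03 on gel and 0.93 on plastic, came from summing the gene with MT-ATP8, with which it shares bases. Summed with MT-ATP8, MT-ATP6 had 10015.3, 7544.7 and 6801.2 CPM at 250 nM and 3922.3, 4044.5 and 4138.8 CPM at 100 nM on gel. On plastic the sum was 6100.8, 6987.2 and 6285.7 CPM at 250 nM and 3650.3, 2664.3 and 3893.6 CPM at 100 nM.

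MT-ND3, a small membrane subunit of complex I (ENSG00000198840, chrM:10059-10404), had 8679, 3962 and 3852 CPM at 250 nM and 1242, 1499 and 1508 CPM at 100 nM on gel. On plastic it had 2684, 3783 and 3732 CPM at 250 nM and 2097, 1159 and 1081 CPM at 100 nM. Replicate 1 of gel at 250 nM was far above every other library, and the doses did not overlap on either substrate. The log2 change was 1.96 on gel (SE 0.33, edgeR adjusted p = 0.00496) and 1.23 on plastic (SE 0.33, edgeR adjusted p = 0.034), and the call on plastic was lost in 6 of 24 settings, among them without replicate 2 or 3 of plastic at either dose or replicate 3 of gel at 100 nM. MT-ND4, also of complex I, changed by 1.22 on gel (SE 0.23, edgeR adjusted p = 0.007) and 0.94 on plastic (SE 0.23, edgeR adjusted p = 0.0241). Its call on plastic held in 18 of 24 settings and was lost, among others, without replicate 2 or 3 of plastic at either dose. Summed with the overlapping MT-ND4L, it changed by 0.74 on plastic and was not called. That sum was 4063.1, 5863.9 and 5561.2 CPM at 250 nM and 3987.1, 2472.6 and 2829.5 CPM at 100 nM on plastic.

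The other genes called on gel had log2 changes of 1.37 (MT-ND1, SE 0.32), 1.55 (MT-CYB, the cytochrome b of complex III, SE 0.38), 1.33 (MT-CO2, SE 0.29) and 0.88 (MT-CO3, SE 0.21), the last 2 being core subunits of complex IV. Their edgeR adjusted p-values were 0.0154, 0.0201, 0.0111 and 0.0174. The call of MT-ND1 was lost without replicate 1 of gel at 100 nM, those of MT-CO3 and MT-CYB without any 1 library of that group, and that of MT-CYB also without replicate 1 of gel at 250 nM, where MT-CO3 changed by 0.58. On plastic their changes of 0.74, 0.85, 0.80 and 0.47 did not pass. MT-ND1 is to be read with care, since MTND1P23, a partial nuclear copy 99.4% identical over 349 aligned bases, had 6.92% to 23.9% of its CPM. MT-ND2 moved the other way, with 1620, 1954 and 1800 CPM at 250 nM and 2417, 2673 and 2716 CPM at 100 nM on gel, a change of -0.54 (SE 0.17, edgeR adjusted p = 0.0439) that passed in 11 of 24 settings and was lost without any 1 library of either gel group.

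The remaining 5 genes were not called on either substrate. MT-CO1, the catalytic subunit of complex IV, had log2 changes of 0.08 on gel (SE 0.21) and -0.15 on plastic (SE 0.21), and MT-ND5 had -0.23 on gel (SE 0.20) and -0.12 on plastic (SE 0.20). MT-ND6 had -0.42 on gel and -0.60 on plastic, MT-ND4L had 0.11 on gel and -0.80 on plastic, and MT-ATP8 had -1.14 on gel and -0.77 on plastic. The 13 genes as annotated therefore did not share 1 dose estimate. On gel the range was -1.14 (MT-ATP8) to 1.96, around a median of 0.88. On plastic it was -0.80 (MT-ND4L) to 1.57, around a median of 0.47. The all-gene medians were -0.02 on gel and -0.04 on plastic. MT-ATP8 and MT-ND4L, at the low ends, share bases with MT-ATP6 and MT-ND4, and sums of these pairs are given below. The number called on plastic was 1 without replicate 2 or replicate 3 of plastic at either dose, where the share of all genes called was 1.12% to 5.45%, against 8.61% with all libraries. It was 6 without replicate 1 of plastic at 100 nM (4.86% of all genes) or replicate 1 of gel at 250 nM (18.5%). On gel 4 were called when replicate 1 of gel at 100 nM was left out (5.3% of all genes), and 5 when replicate 2 (6.39%) or 3 (8.32%) was, against 13.8% with all libraries.

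**Figure D3:**
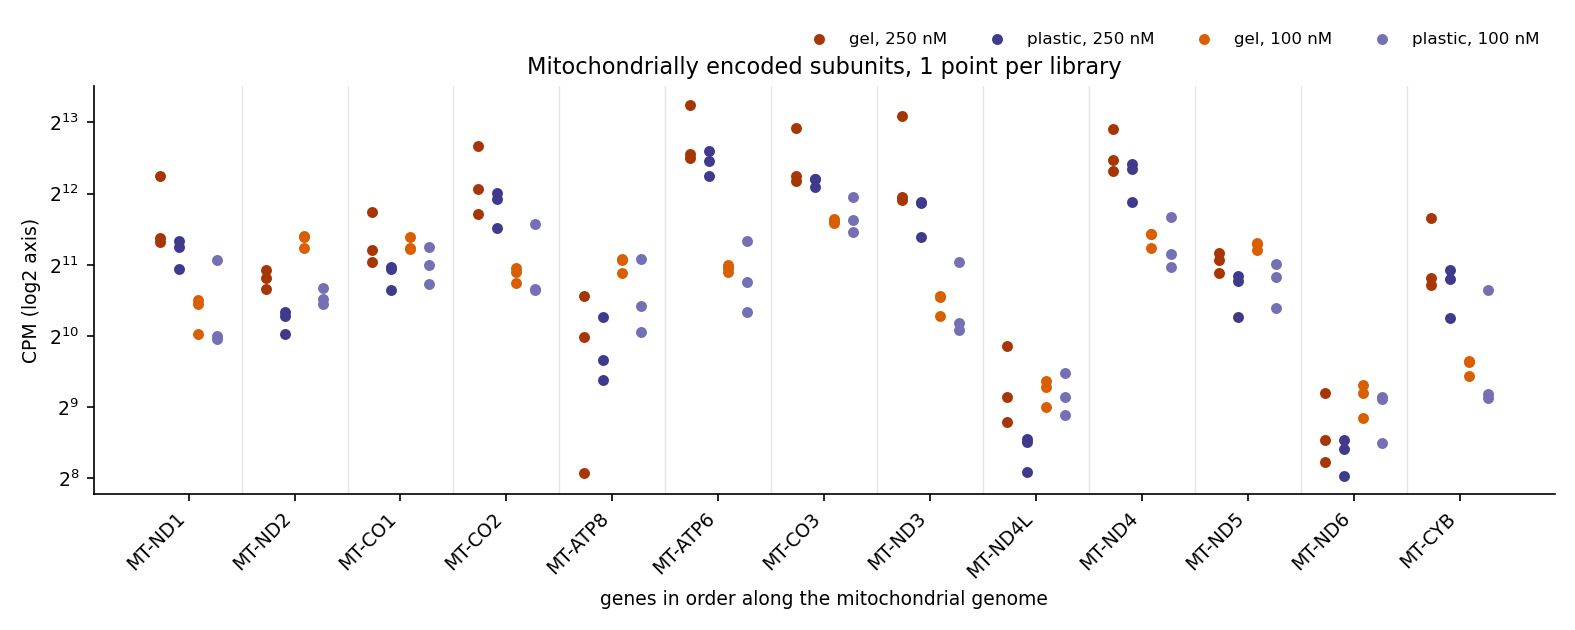
CPM of the 13 mitochondrial genes on a log2 axis, in their order along the mitochondrial genome, with 1 point per library and the 4 groups side by side. MT-ATP6, MT-ND3 and MT-ND4 are higher at 250 nM, whereas MT-ND2 is lower, and replicate 1 of gel at 250 nM is the highest library in 9 of the genes.

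The make-up of the mitochondrial reads also differed between the doses. MT-ATP8 made up 2.69%, 20.1% and 14.9% of the combined CPM of MT-ATP8 and MT-ATP6 on gel at 250 nM and 20.1%, 11.5% and 10.6% on plastic at 250 nM, against 48.0%, 52.9% and 52.1% on gel at 100 nM and 29.02%, 51.5% and 55.5% on plastic at 100 nM. All 250 nM libraries were below all 100 nM libraries. MT-ND4L made up 10.8%, 9.91% and 7.27% of the combined CPM of MT-ND4L and MT-ND4 on gel at 250 nM and 6.72%, 6.38% and 6.55% on plastic at 250 nM, against 17.5% to 19.4% on gel at 100 nM and 17.97% to 19.9% on plastic at 100 nM, again without overlap. Each overlapping pair and each gene's nuclear copies were also summed to 1 unit. The dose median of the mitochondrial units was then 1.03 on gel and 0.74 on plastic, and 8 and 2 units were called. Over all genes 1700 and 1058 were called in that setting, against 1703 and 1061 with the genes kept apart.

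Reads of the 2 ribosomal RNAs of the mitochondrion, which lie upstream of MT-ND1 on the same strand, went the other way from MT-ATP6. As polyadenylated RNA was sequenced, these reads need not follow the full amount of the ribosomal RNAs. MT-RNR2, the large one, had 19622, 38066 and 30384 CPM at 250 nM and 74171, 66371 and 64765 CPM at 100 nM on gel, and 27527, 26270 and 25827 CPM at 250 nM and 50254, 59330 and 59972 CPM at 100 nM on plastic. It fell by 1.22 on the log2 scale on gel (SE 0.22, edgeR adjusted p = 0.00618) and by 1.09 on plastic (SE 0.22, edgeR adjusted p = 0.0113), a call on plastic that was lost without replicate 2 or 3 of plastic at 250 nM. MT-RNR1, the small one, fell by 0.87 on gel (SE 0.21, edgeR adjusted p = 0.0167; not called without replicate 1 of gel at 100 nM), and its change of -0.66 on plastic did not pass (edgeR adjusted p = 0.0605). The ratio of the 13 genes to both ribosomal RNAs in summed CPM was 2.39, 0.843 and 1.03 on gel at 250 nM. On plastic at 250 nM it was 0.882, 1.17 and 1.12. At 100 nM it was 0.271 to 0.336 on gel and 0.258 to 0.495 on plastic.

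**Figure D4:**
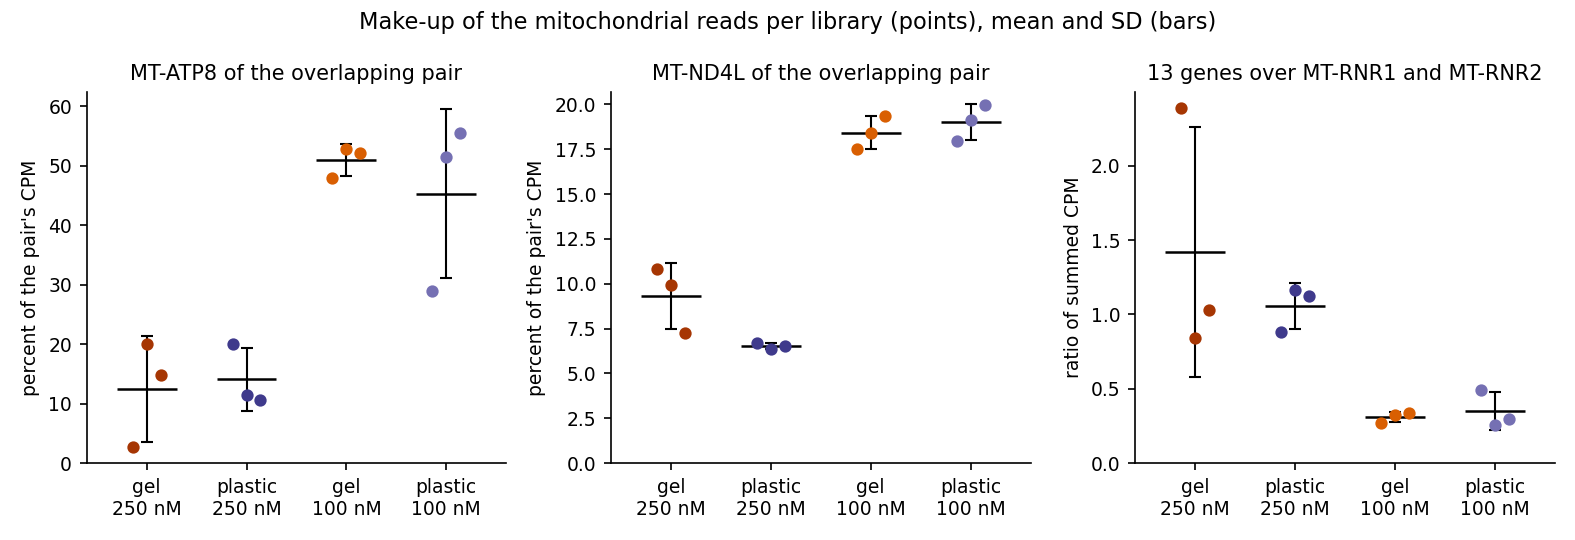
Share of MT-ATP8 and of MT-ND4L in the CPM of each overlapping pair (percent), and the ratio of the 13 genes to MT-RNR1 and MT-RNR2. Points are libraries, and bars are the mean and SD of 3. The shares are lower and the ratio higher in every 250 nM library than in every 100 nM library.

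Among the nuclear subunits the dose estimates were mostly positive on gel and divided on plastic. On gel 33 of 80 were called higher at 250 nM (6.92% of all genes) and 1 lower (6.89%), with a median log2 change of 0.73 against -0.02 for all genes. On plastic 5 were called higher (4.09% of all genes) and 2 lower (4.52%), with a median of 0.13 against -0.04. The 5 called higher on plastic were also called on gel, and their doses did not overlap on either substrate (16.5% of all genes were higher without overlap on gel and 16.4% on plastic).

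NDUFA6, an accessory subunit of complex I (ENSG00000184983, chromosome 22), had 185.7, 175.8 and 179.5 CPM at 250 nM and 72.0, 80.3 and 81.4 CPM at 100 nM on gel. On plastic it had 129.5, 186.4 and 185.4 CPM at 250 nM and 93.1, 93.4 and 73.0 CPM at 100 nM. Its log2 change was 1.21 on gel (SE 0.19, edgeR adjusted p = 0.00375) and 0.95 on plastic (SE 0.19, edgeR adjusted p = 0.0106).

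SDHA (ENSG00000073578, chromosome 5) had 130.9, 72.8 and 88.5 CPM at 250 nM and 48.1, 48.2 and 48.6 CPM at 100 nM on gel, and 86.1, 80.7 and 67.9 CPM at 250 nM and 39.4, 38.4 and 36.1 CPM at 100 nM on plastic. It was the 1 subunit of complex II called, higher by 1.01 on gel (SE 0.21, edgeR adjusted p = 0.00944) and 1.04 on plastic (SE 0.21, edgeR adjusted p = 0.0114). The other 3 subunits of that complex had no called change. SDHB, the iron-sulfur subunit, had log2 changes of -0.49 on gel and -0.63 on plastic, SDHC had 0.22 and -1.24, and SDHD, the other membrane anchor, had -0.89 and -2.04. For SDHC and SDHD replicate 1 of plastic at 100 nM was the highest library, at 389.8 and 13.5 CPM. SDHD was scarce, with 2.64, 3.40 and 2.11 CPM on gel at 250 nM and 5.44, 5.64 and 3.99 CPM on gel at 100 nM.

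ATP5ME, subunit e of ATP synthase, which helps hold its dimers (ENSG00000169020, chromosome 4), had 285.5, 149.1 and 168.6 CPM at 250 nM and 51.7, 58.8 and 64.0 CPM at 100 nM on gel. On plastic it had 124.2, 196.2 and 181.0 CPM at 250 nM and 81.7, 74.0 and 60.0 CPM at 100 nM. The change was 1.79 on gel (SE 0.26, edgeR adjusted p = 0.00297) and 1.22 on plastic (SE 0.26, edgeR adjusted p = 0.0138), the largest called nuclear rise on each substrate. On plastic the calls of ATP5ME, NDUFA6 and COX5A were lost without replicate 2 or 3 of plastic at 250 nM, and that of SDHA without replicate 2.

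COX5A, a subunit of complex IV (ENSG00000178741, chromosome 15), had 312.0, 413.7 and 354.8 CPM at 250 nM and 153.8, 191.2 and 184.5 CPM at 100 nM on gel, and 305.8, 378.3 and 370.3 CPM at 250 nM and 184.7, 200.7 and 191.6 CPM at 100 nM on plastic. The changes of 1.03 on gel (SE 0.18, edgeR adjusted p = 0.00498) and 0.87 on plastic (SE 0.18, edgeR adjusted p = 0.0114) were close to each other. COX7A1, the isoform of subunit 7A best known from heart and skeletal muscle (ENSG00000161281, chromosome 19), had 60.8, 50.5 and 38.4 CPM at 250 nM and 18.9, 20.1 and 19.96 CPM at 100 nM on gel. On plastic it had 28.6, 36.1 and 32.2 CPM at 250 nM and 21.6, 18.7 and 13.5 CPM at 100 nM. It changed by 1.35 on gel (SE 0.23, edgeR adjusted p = 0.00502) and 0.84 on plastic (SE 0.24, edgeR adjusted p = 0.0414), and the call on plastic was lost in 10 of 25 settings, 8 of which leave out 1 library (any of plastic at 250 nM, replicates 2 and 3 of plastic at 100 nM, replicates 2 and 3 of gel at 100 nM, and replicate 2 of gel at 250 nM).

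The 2 members called lower on plastic were both accessory subunits of complex I. NDUFB3 had 14.1, 10.3 and 10.6 CPM at 250 nM and 95.3, 33.9 and 19.6 CPM at 100 nM on plastic, a change of -2.09 (SE 0.51, edgeR adjusted p = 0.0258). Replicate 1 at 100 nM set much of that size, since without it the change was -1.19 and not called. NDUFA7 had 9.86 to 14.9 CPM at 250 nM and 34.3, 33.8 and 21.1 CPM at 100 nM on plastic, a change of -1.27 (SE 0.33, edgeR adjusted p = 0.0301). The call of NDUFB3 was also lost without replicate 2 or 3 of plastic at 250 nM, and that of NDUFA7 without any 1 library of plastic at 250 nM or replicate 1 or 2 of plastic at 100 nM. Neither was called on gel, where the changes were -0.29 and -0.27. ATP5PD, subunit d of the stator stalk of ATP synthase, was the 1 nuclear member called lower on gel, with 34.4, 71.4 and 64.1 CPM at 250 nM and 105.8, 109.4 and 103.4 CPM at 100 nM, a change of -0.91 (SE 0.26, edgeR adjusted p = 0.0319) that was not called without any 1 of the gel libraries at 100 nM.

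By complex, the nuclear members called higher on gel were 12 of 38 in complex I, 1 of 4 in II, 6 of 10 in III, 6 of 10 tested in IV and 8 of 18 tested in V, with median log2 changes of 0.64, -0.13, 0.86, 0.82 and 0.76. All 10 estimates in complex III and all 10 in complex IV were above 0. In complex I, NDUFS6, an accessory subunit with a zinc site, had 293.5, 205.4 and 174.5 CPM at 250 nM and 90.9, 82.1 and 89.8 CPM at 100 nM on gel, and changed by 1.36 (SE 0.23, edgeR adjusted p = 0.00465). In complex V, ATP5MG, subunit g and the most abundant nuclear member, had 1492, 900.2 and 800.3 CPM at 250 nM and 301.0, 397.1 and 393.7 CPM at 100 nM on gel, and changed by 1.55 (SE 0.27, edgeR adjusted p = 0.00496). UQCRQ of complex III had 1451, 540.4 and 493.1 CPM at 250 nM and 303.0, 305.2 and 281.0 CPM at 100 nM on gel, so replicate 1 of gel at 250 nM was far above its group. Its change of 1.48 (SE 0.34, edgeR adjusted p = 0.0149) was lost in 3 of 25 settings, among them without replicate 1 of gel at 100 nM. It came to 0.78 once that high library was left out.

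The number of nuclear members called on gel, 34 in either direction, was 16, 20 and 22 without replicate 1, 2 and 3 of gel at 100 nM, and 14 when the 6 gel libraries were analysed alone. The number called over all genes was 1703 with all libraries, and 653, 788, 1026 and 516 in these settings, so it fell as well. The median change was 0.56 without replicate 1 of gel at 250 nM. On plastic the 7 called became 0 without replicate 2 of plastic at 250 nM, 1 without replicate 3 of that group and 21 without replicate 1 of gel at 250 nM. Over all genes 1061 were called with all libraries, and 138, 147 and 2282 in these settings. The nuclear median became -0.05 without replicate 3 and 0.28 without replicate 1 of plastic at 100 nM.

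**Figure D5:**
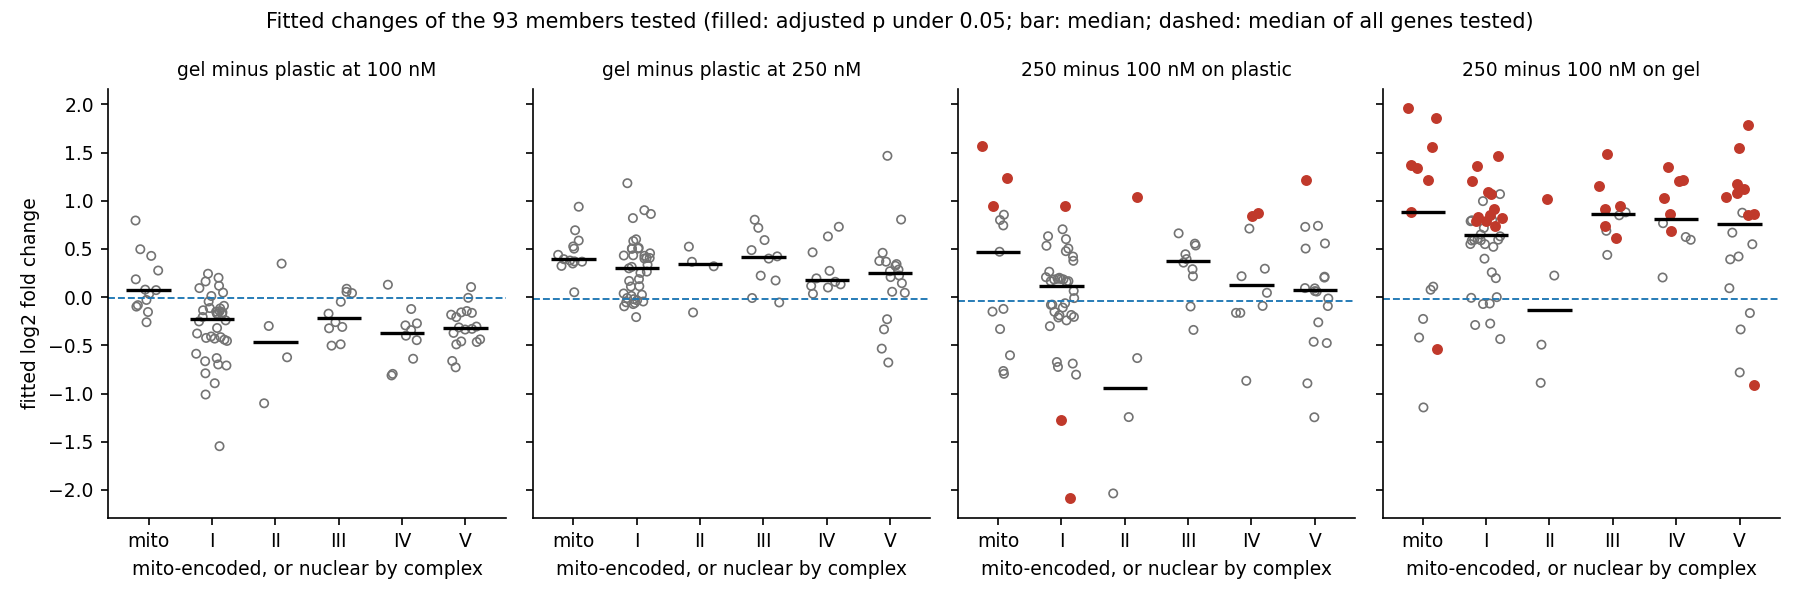
Fitted log2 fold changes of the 93 tested members in 4 comparisons, with mitochondrially encoded genes and the nuclear genes of complexes I to V as columns of points. Filled points were called, bars are medians and the dashed line is the median of all 12329 genes; gel minus plastic shows no filled point at either dose, and 250 minus 100 nM on gel shows 42.

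Several subunits exist as paralogous isoforms, and for COX6A, COX6B, COX7B and COX8 the ubiquitous form was the one present in these fibroblasts. COX6A1 and COX6B1 averaged 204.6 ± 22.8 and 95.4 ± 2.67 CPM on gel at 250 nM and 127.2 ± 21.7 and 63.1 ± 3.92 CPM on gel at 100 nM (SD, n = 3 each), while COX6A2 and COX6B2 had at most 1 and 2 counts in a library. COX7B averaged 123.2 ± 8.96 CPM on gel at 250 nM and 53.1 ± 12.4 CPM on gel at 100 nM and was called higher (log2 change 1.21, SE 0.25, edgeR adjusted p = 0.00958), and COX7B2 had 0 counts in all libraries. COX8A averaged 116.3 ± 44.8 CPM on gel at 250 nM and 101.2 ± 6.53 CPM on gel at 100 nM, and COX8C had at most 2 counts.

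Of the pair COX7A1 and COX7A2, both forms were present. COX7A2, the form found in most tissues, averaged 559.4 TPM over the 12 libraries and COX7A1 102.5 TPM. COX7A2 had 316.9, 181.1 and 159.3 CPM at 250 nM and 149.3, 129.1 and 108.5 CPM at 100 nM on gel, and its change of 0.77 (SE 0.31, edgeR adjusted p = 0.11) did not pass. The difference between the changes of the pair was not tested. The 3 genes for subunit c of ATP synthase, whose mature products are the same, differed in level, with 445.6 TPM for ATP5MC3, 170.4 TPM for ATP5MC2 and 120.4 TPM for ATP5MC1. ATP5MC3 was called higher on gel at 250 nM (log2 change 0.87, SE 0.24, edgeR adjusted p = 0.0319; the call was lost without any 1 gel library at 100 nM or replicate 1 at 250 nM), while ATP5MC2 (0.09, SE 0.29) and ATP5MC1 (0.55, SE 0.43) were not. UQCRHL, an intronless copy of the complex III gene UQCRH, had 4.60 TPM, against 516.1 TPM for UQCRH; as the sequences are nearly the same, its few reads may belong to the parent.

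The related genes were counted from lists of known members. Of the 49 respiratory chain assembly factors, 10 were called higher and 0 lower at 250 nM on gel, and 3 higher and 1 lower on plastic. Of all genes tested, 6.92% were called higher and 6.89% lower on gel, and 4.09% higher and 4.52% lower on plastic, so the plastic counts of this list are near the background. SCO2, a copper chaperone of complex IV, was called in the substrate comparison averaged over doses, with 47.9, 30.6 and 36.7 CPM on gel and 18.2, 17.4 and 11.4 CPM on plastic at 250 nM, and 22.3, 13.8 and 22.7 CPM on gel and 13.6, 15.2 and 9.18 CPM on plastic at 100 nM. The groups did not overlap at 250 nM and overlapped at 100 nM, and the averaged log2 change was 0.96 (SE 0.21, edgeR adjusted p = 0.0488), a call that held only without replicate 2 of gel at 100 nM or replicate 1 of gel at 250 nM among the 12 omissions of 1 library. COX14 and SURF1, assembly factors of complex IV, and SDHAF2, which attaches the flavin to SDHA, were called higher at 250 nM on plastic, with edgeR adjusted p-values of 0.0142, 0.0287 and 0.017, and FMC1, an assembly factor of ATP synthase, was called lower, with a change of -1.57. Without replicate 2 or replicate 3 of plastic at 250 nM these 4 calls were lost, as were those on plastic of ELAC2, GABPA, GABPB1, PRKAA1, COX4I1 and ATP5IF1, described next. In these settings 1.12% and 1.19% of all genes were called. Without replicate 1 of plastic at 100 nM the calls of SURF1, SDHAF2 and FMC1 were lost too, that of SURF1 also without replicate 2 of that group and that of FMC1 also without replicate 1 of plastic at 250 nM.

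Of the 33 tested genes of mitochondrial transcription, RNA handling and DNA maintenance, 4 were called higher and 2 lower at 250 nM on gel (6.92% and 6.89% of all genes), and 2 higher and 0 lower on plastic (4.09% and 4.52%). FASTKD5, which acts in the processing of mitochondrial messenger RNAs without flanking transfer RNAs, had 45.9, 45.1 and 37.9 CPM at 250 nM and 21.9, 14.8 and 19.4 CPM at 100 nM on gel, and 39.7, 33.8 and 42.8 CPM at 250 nM and 14.1, 13.9 and 15.2 CPM at 100 nM on plastic. Its changes were 1.201 on gel (SE 0.21, edgeR adjusted p = 0.00502) and 1.43 on plastic (SE 0.21, edgeR adjusted p = 0.0037). ELAC2, which trims the ends of transfer RNAs, was called higher on both, at 1.22 on gel and 1.41 on plastic. Its change on gel was 0.70 and not called without replicate 1 of gel at 250 nM, the call on gel was also lost without replicate 1 or 2 of gel at 100 nM, and that on plastic without replicate 2 of plastic at 100 nM. LRPPRC and SLIRP, partners that stabilise mitochondrial messenger RNAs, differed on gel: LRPPRC was called lower at -0.91 (SE 0.28, edgeR adjusted p = 0.0478) and SLIRP higher at 1.02 (SE 0.24, edgeR adjusted p = 0.0155). The call of SLIRP was lost without replicate 1 of gel at 100 nM, and that of LRPPRC in 10 of the 12 omissions of 1 library, all but replicate 2 of gel at 250 nM and replicate 1 of plastic at 100 nM. TFAM, which packages and transcribes the mitochondrial genome, had changes of -0.66 on gel and -0.59 on plastic (SE 0.29 each) that did not pass, and the mitochondrial RNA polymerase POLRMT averaged 7.02 ± 2.30 CPM on gel and 2.06 ± 1.01 CPM on plastic at 250 nM, a change of 1.75 (SE 0.55) that did not pass (edgeR adjusted p = 0.306).

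Of 17 regulators of mitochondrial biogenesis, 13 were tested. GABPA, the DNA-binding subunit of the GABP factor, had 0.991, 3.88 and 3.79 CPM at 250 nM and 13.1, 14.6 and 17.1 CPM at 100 nM on gel, and 3.73, 4.69 and 6.28 CPM at 250 nM and 18.7, 19.2 and 13.3 CPM at 100 nM on plastic. It was lower at 250 nM without overlap, with changes of -2.42 on gel (SE 0.41, edgeR adjusted p = 0.00488) and -1.79 on plastic (SE 0.38, edgeR adjusted p = 0.0142). GABPB1, its partner subunit, was called lower on plastic at -0.89 (SE 0.25, edgeR adjusted p = 0.044), a call lost in 11 of the 12 omissions of 1 library (it held without replicate 1 of gel at 250 nM), and its -0.76 on gel did not pass. PRKAA1, a catalytic subunit of the AMP-activated kinase, was called lower on both substrates, at -0.77 on gel and -0.72 on plastic. The call on gel was lost without replicate 1 or 2 of gel at 100 nM or replicate 3 of gel at 250 nM, and that on plastic without any 1 plastic library, replicate 2 of gel at 100 nM or replicate 2 or 3 of gel at 250 nM. NRF1 had changes of 0.84 on gel (SE 0.65) and -0.57 on plastic (SE 0.74) and was not called. The coactivators PPARGC1A and PPARGC1B and the receptor ESRRA averaged at most 1.07 CPM in any group and were not tested.

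Among the genes of the pathway outside the naming rule, COX4I1 had 399.5, 383.1 and 392.8 CPM at 250 nM and 235.3, 215.0 and 221.9 CPM at 100 nM on gel, a called change of 0.81 (SE 0.17, edgeR adjusted p = 0.0106), and on plastic its change of 0.69 (SE 0.17, edgeR adjusted p = 0.0263) was also called, though not without replicate 1 or 3 of plastic at 100 nM. ATP5IF1, the natural inhibitor of ATP synthase running in reverse, was called higher on both, at 1.22 on gel and 1.34 on plastic (SE 0.25 each, edgeR adjusted p = 0.0087 and 0.00852). CYCS, the electron carrier cytochrome c, had changes of 0.13 on gel and -0.20 on plastic and was not called. Of 77 mitochondrial ribosomal proteins, 19 were called higher and 3 lower on gel (6.92% and 6.89% of all genes), and 9 higher and 5 lower on plastic (4.09% and 4.52%). Of 21 genes of the citric acid cycle and pyruvate dehydrogenase, 3 were called higher and 1 lower on gel, and 0 higher and 1 lower on plastic, counts too small to set apart from the same background.

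Cytosolic ribosomal protein genes, another class of short and abundant messenger RNAs, had median changes of the same sign as the nuclear subunits. Their median log2 change on gel against plastic was 0.17 at 250 nM and -0.18 at 100 nM, and the median for 250 against 100 nM was 0.55 on gel, where 35 of 83 were called higher and 1 lower (6.92% and 6.89% of all genes), and 0.15 on plastic, where 8 were called higher and 0 lower (4.09% and 4.52%). Across the 80 nuclear subunits, the Spearman correlation of effective length with the fitted change was -0.28 for gel against plastic at 250 nM, 0.33 at 100 nM and -0.54 for 250 against 100 nM on gel and -0.16 for 250 against 100 nM on plastic. Shorter genes thus had the larger dose estimates on gel, and the relation was weak on plastic. Over all 12329 genes it was -0.17, 0.10, -0.21 and -0.04 in the same comparisons. These correlations are across genes of the same libraries, which are not independent, and the part of transcript length in the results was not tested.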

How the data were processed

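RNA of 12 libraries of IMR90 cells was measured. The authors' deposited tables give RSEM expected counts, TPM and FPKM per gene, per the file headers, of which FPKM was not used. Reads were handled with Trimmomatic, STAR and RSEM against GRCh38, with DESeq2 1.36.0, per the submitters' processing notes; the sources used here name no further versions, no annotation release and no strand setting. Expected counts were rounded. Genes passing edgeR's filterByExpr over the 4 groups (12329 of 61541) were scaled by TMM and fitted together with edgeR 4.0.16 in R 4.3.3 (robust quasi-likelihood, 8 residual degrees of freedom), with Benjamini-Hochberg adjustment over all of them and calls at 0.05. CPM uses the scaled library size. Levels of different genes were compared in TPM. The fit was tested on simulated data. Totals were 2229060 to 7351904 counts per library, so low members at 250 nM are the least precise. Members, related lists and marker lists were chosen with earlier results of these data known. Named members are the 13 mitochondrial genes, called nuclear members (over 12 in a comparison and direction, the 6 with the smallest adjusted p), the 3 highest and 3 lowest estimates per comparison at 5 CPM or more, the most abundant member per complex and isoform groups; NDUFB10 was named after its values were seen. Biotypes and coordinates are from GENCODE 29 (GRCh38) and promoters from RefSeq GRCh38.p14. Alternatives were RLE and upper-quartile scaling, no filter, DESeq2 1.42.0, limma 3.58.1 (voom with sample weights, and log2(TPM + 1)), the libraries of 1 comparison alone, the mitochondrial genome or the ribosomal DNA loci left out, each library left out, a replicate block, and, chosen after seeing the data, 2 more.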

Additional observations from a re-analysis of the deposited data

How the results depend on the processing

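Calls of MT-ATP6 on both substrates and of MT-ND3 and MT-ND4 on gel held in all 24 settings, and MT-ND2 averaged over doses in 21 of 23. The estimate of NDUFV3 between gel and plastic at 100 nM turned to -0.068 in TPM with limma. For gel against plastic at 100 nM, called mitochondrial genes numbered 1 with no filter, 1 with DESeq2, 2 with voom, 1 without both libraries that stand apart (replicate 1 of plastic at 100 nM and of gel at 250 nM) and 1 on leaving out replicate 1 in the 2 gel groups, and called nuclear genes 3 with no filter and 2 with voom; without the 2 libraries the medians were 0.348 (mitochondrial) and -0.123 (nuclear). At 100 nM the share of all genes called was 1.28% with DESeq2, 3.63% with voom and 0.576% without the 2 libraries. It was 0.981% without replicate 1 in the 2 gel groups, and with no filter 231 genes were called. At 250 nM the mitochondrial count was 1 with no filter, DESeq2 or voom, and the nuclear count 2, 1 and 2. Over all genes 181 were called with no filter, 0.754% with DESeq2 and 1.31% with voom. The nuclear median at 250 nM was 0.085 with voom and 0.097 without the 2 libraries. Averaged over doses, voom called 2 mitochondrial and 5 nuclear genes, where it called 6.5% of all genes, so the nuclear count is near the background. For the difference of substrate effects, 4 nuclear genes were called with no filter, where 63 were called over all genes. The mitochondrial median was -0.137 with voom and -0.182 without the 2 libraries. The nuclear one was 0.346 with voom, 0.247 without the 2 libraries and 0.381 without replicate 1 in the 2 gel groups.

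For dose on plastic, voom called 9 mitochondrial and 30 nuclear genes, and 25.7% of all genes, against 8.61% in the main analysis. Without the 2 libraries 9 and 19 were called (17.5% of all genes). Without replicate 1 in the 2 gel groups 7 and 25 were called (20.8%). In TPM 1 mitochondrial gene was called (5.69%), and with DESeq2 14 nuclear genes (13.5%). With no filter 7 mitochondrial and 12 nuclear genes were called, where 1464 were called over all genes. With the 6 plastic libraries alone 11 nuclear genes were called, where 1693 were called over all genes. The nuclear median was 0.285 without the 2 libraries, and the mitochondrial one 0.738 with overlapping genes summed. For dose on gel, nuclear medians were 0.57 with voom, 0.559 without the 2 libraries and 0.519 without replicate 1 in the 2 gel groups. Mitochondrial medians were 0.577 and 0.603 for the last 2. In TPM 5 mitochondrial and 21 nuclear genes were called (11.7% of all genes, against 13.8% in the main analysis). Without replicate 1 in the 2 gel groups 4 and 18 were called (6.29%). With the 6 gel libraries alone 14 nuclear genes were called, where 516 were called over all genes. Per library, the gel minus plastic difference of the class medians was 0.729 at 100 nM and 0.014 at 250 nM in TPM. The cause of these shifts was not tested.

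Leaving out 1 library at a time gave these ranges. At 100 nM, gel against plastic, 0 to 1 mitochondrial calls and medians of -0.098 to 0.348 (mitochondrial) and -0.437 to -0.124 (nuclear); at 250 nM 0.137 to 0.56 and 0.097 to 0.356. Averaged over doses, 0 to 1 mitochondrial calls and medians of 0.108 to 0.436 and -0.098 to 0.052; for the difference of effects 0.057 to 0.501 and 0.42 to 0.776. For dose on plastic, 1 to 6 mitochondrial and 0 to 21 nuclear calls (1.12% to 18.5% of all genes), with medians of 0.368 to 0.629 and -0.052 to 0.285. On gel, 4 to 8 and 16 to 38 calls (5.3% to 15% of all genes), with medians of 0.577 to 1.013 and 0.559 to 0.779. Between gel and plastic 0.0406% to 0.965% of all genes were called at 100 nM, and 0.324% to 2.22% averaged over doses. Per library, 0.274 to 0.621 at 100 nM and 0.181 to 0.39 at 250 nM.

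Same-numbered libraries correlated by -0.24 to 0.14 in their deviations from the group mean, and differently numbered ones by -0.29 to 0.39. Correlations over 3 libraries per group cannot settle whether the numbers pair the libraries. The labels name no shared batch, and the main fit used no pairs. With the number as a replicate block, nuclear calls for dose were 10 on plastic and 32 on gel, and mitochondrial calls 3 and 8. Of all genes, 8.95% were called on plastic and 13.7% on gel in that setting. The nuclear medians between gel and plastic were -0.279 at 100 nM and 0.259 at 250 nM. Dose cannot be told apart from library set, and 250 nM libraries hold fewer reads, which limits members of a few CPM.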
